A study of Mus musculus with 6 samples.

Results

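The genes described here are 10 transcripts of hepatocytes that lie next to the central vein of the liver lobule or that respond to beta-catenin, chosen by name: Glul, Cyp2e1, Oat, Slc1a2, Slc1a4, Lgr5, Axin2, Tbx3, Rgn and Rnf43. All 10 were found among the 55536 genes listed for each library. Whole liver was sequenced, so the position of their transcripts in the lobule was not measured. They were measured by RNA sequencing of liver from 6-week-old (at the start of dosing) male mice of the inbred strain C57BL/6. In the PS-MP group (3 libraries), mice were given polystyrene microplastics, small particles of a packaging plastic, orally for 8 weeks, at a labelled dose of 0.4 mg/day given 2 times weekly. In the water group (3 libraries), mice of the same strain, sex and age received water on that schedule. The labels do not state that the 3 libraries of a group are 3 mice, so p-values describe the spread between libraries, which may in part be technical.

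In the liver lobule, endothelial cells of the central vein release WNT proteins and R-spondins. These stabilise beta-catenin in the nearest hepatocytes, where it works with TCF/LEF factors to switch on pericentral genes. The innermost hepatocytes capture ammonia as glutamine, and the pericentral zone is also where much cytochrome P450 metabolism takes place. Hepatocytes around the portal tract instead make urea and glucose. Several targets feed back on the pathway: Lgr5 strengthens WNT reception, while Axin2 and Rnf43 dampen it.

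None of the 10 genes differed between PS-MP and water at an adjusted p under 0.05 by limma-trend, a linear model fitted to all genes with a shared estimate of spread. All 10 passed the low-count rule (at least 0.66 CPM in 3 libraries, CPM being reads relative to the library total, and 15 reads in all) and were tested. With limma-trend 0 of 10 were called, against 0.489% of the 13299 genes tested, and 3 of 10 had an unadjusted p under 0.05, against 13.1% of all tested genes. Limma-voom on recovered reads also called 0 of 10, beside 0.985% of all tested genes in that fit, with 4 of 10 at an unadjusted p under 0.05, beside 13.3%. The 3 genes by limma-trend were Slc1a2 and Rnf43, both with higher values in PS-MP, and Lgr5, with lower values in PS-MP. For Slc1a2, Rnf43, Axin2 and Lgr5 the PS-MP and water values did not overlap, which is 4 of 10 genes beside 19.2% of all tested genes. The log2 fold change of the 10 genes, PS-MP over water, had a median of 0.08, beside 0.01 over all tested genes, and of -0.016 without PS-MP replicate 3. In whole liver, a lower level can come from fewer cells of a type or from less RNA per cell, and these cannot be told apart.

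The libraries held between 13082210 and 16948343 reads. Hepatocyte transcripts dominated. The 6 hepatocyte markers examined summed to 39999, 38239 and 32864 FPKM in PS-MP replicates 1, 2 and 3, against 39854, 42783 and 39840 FPKM in water. FPKM gives reads relative to both the exon length of the gene and the total of its library. PS-MP replicate 3 stood apart by transcripts of brain, with 27.3 FPKM summed over 8 neuron markers, against 3.84 and 2.27 FPKM in PS-MP replicates 1 and 2 and 1.18 to 1.29 FPKM in water. The neuron sums of PS-MP replicates 1 and 2 thus also lay above those of water. Adipocyte transcripts were uneven, with 28.0 FPKM summed over 5 markers in water replicate 1. PS-MP replicate 3 had 11.1 FPKM and water replicate 3 had 8.28 FPKM, against 0.45 FPKM in water replicate 2 and at most 0.01 FPKM in PS-MP replicates 1 and 2. Several results below are also given without PS-MP replicate 3 or water replicate 1.

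The 10 genes spanned a wide range of FPKM levels. Cyp2e1 averaged 4468 FPKM over the 6 libraries, at the 99.9th percentile of tested genes. Oat followed at 808 FPKM, Glul at 303 FPKM, Rgn at 276 FPKM and Slc1a2 at 24.8 FPKM. The pathway components were lower, with Tbx3 at 6.75 FPKM, Rnf43 at 3.47 FPKM, Axin2 at 2.01 FPKM and Lgr5 at 1.15 FPKM. Slc1a4 was lowest at 0.64 FPKM. The order of neighbours held in 6 of 6 libraries with 3 exceptions: Glul lay above Rgn in 4 libraries, and Axin2 above Lgr5 and Lgr5 above Slc1a4 in 5 libraries each. The ranges over the 6 libraries overlapped for these 3 pairs only. Glul and Rgn overlapped within both groups, Axin2 and Lgr5 within water but not within PS-MP, and Lgr5 and Slc1a4 within PS-MP but not within water.

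**Figure D1:**
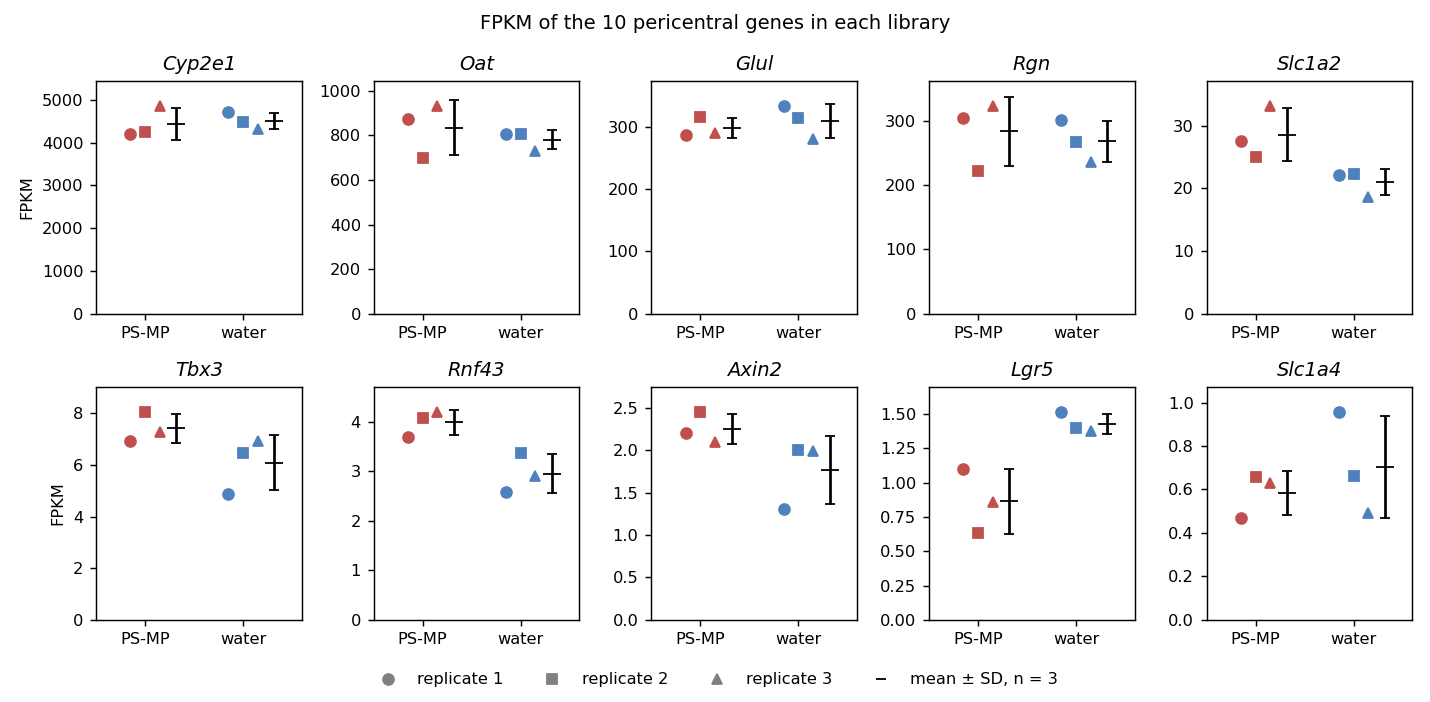
FPKM (y axis, from 0, on its own scale for each gene) of the 10 genes in the PS-MP libraries (left, red) and the water libraries (right, blue); symbols give the replicate and the bar the mean ± SD (n = 3). The PS-MP points of Slc1a2, Rnf43 and Axin2 lie above all water points and those of Lgr5 below them, while the groups overlap for the other 6 genes.

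Lgr5 encodes the R-spondin receptor that marks pericentral hepatocytes and several kinds of stem cell (chromosome 10, 115450311 to 115587780, minus strand; coordinates here are of GENCODE M21 on GRCm38). It had 1.10, 0.63 and 0.86 FPKM in PS-MP replicates 1, 2 and 3, against 1.51, 1.40 and 1.38 FPKM in water replicates 1, 2 and 3. All PS-MP values lay below all water values, and PS-MP replicate 2 was the lowest. The means were 0.86 ± 0.24 FPKM in PS-MP and 1.43 ± 0.07 FPKM in water (SD, n = 3 each), and the fitted log2 fold change was -0.52 (standard error 0.14, 95% interval -0.84 to -0.19, limma adjusted p = 0.186). These levels rest on 148, 103 and 131 reads in PS-MP, against 236, 243 and 205 reads in water. Counting error alone gives PS-MP replicate 1 an interval of 0.93 to 1.29 FPKM and water replicate 3 one of 1.19 to 1.58 FPKM, so the nearest libraries of the groups overlap by counting error. The fold change is on the scale of log2(FPKM + 0.5), which understates differences at this level: it was -0.78 on reads with limma-voom (adjusted p = 0.0718).

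Rnf43 encodes a membrane ubiquitin ligase that removes WNT receptors from the cell surface and that R-spondins hold in check (chromosome 11, 87662722 to 87735539, plus strand). It had 3.69, 4.07 and 4.19 FPKM in PS-MP, against 2.58, 3.36 and 2.91 FPKM in water. The groups did not overlap, and water replicate 1 was the lowest library. Rnf43 thus had a log2 fold change of 0.38 (standard error 0.11, 95% interval 0.13 to 0.63, limma adjusted p = 0.198), and 0.30 without water replicate 1. Znrf3, the related ligase, had 2.61, 2.45 and 2.81 FPKM in PS-MP, against 2.30, 2.32 and 2.83 FPKM in water, and its values overlapped.

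Axin2 encodes a scaffold of the complex that degrades beta-catenin and is widely read as a WNT target (chromosome 11, 108920349 to 108950783, plus strand). It had 2.21, 2.45 and 2.09 FPKM in PS-MP, against 1.30, 2.004 and 1.99 FPKM in water. The groups did not overlap, but water replicates 2 and 3 lay close under the PS-MP values and water replicate 1 well below. This gave a log2 fold change of 0.29 (standard error 0.15, 95% interval -0.04 to 0.63, limma adjusted p = 0.445), and 0.14 without water replicate 1. A stretch of 209 exon bases is shared with the antisense gene Gm11670, which had 15 reads over all 6 libraries.

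Tbx3 encodes a transcription factor that beta-catenin induces in hepatocytes (chromosome 5, 119670669 to 119684724, plus strand). It had 6.91, 8.05 and 7.29 FPKM in PS-MP, against 4.88, 6.45 and 6.91 FPKM in water. The groups met at PS-MP replicate 1 and water replicate 3, and water replicate 1 was again the lowest. The log2 fold change was 0.28 (standard error 0.13, 95% interval -0.02 to 0.57, limma adjusted p = 0.415), and 0.14 without water replicate 1. Tbx3 shares 115 exon bases with Tbx3os1 on the other strand, which had 697 reads over the 6 libraries.

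Water replicate 1 was thus the lowest library for Axin2, Tbx3 and Rnf43, and the highest for Lgr5, Glul and Slc1a4. It was also the library with the most adipocyte transcripts: Cfd had 14.6 FPKM there, against 0.32 and 5.45 FPKM in water replicates 2 and 3, and Ucp1 of brown fat had 5.59 FPKM, against 0.00 and 0.63 FPKM. The part of these transcripts in the low values was not tested. With PS-MP replicate 3 and water replicate 1 both left out, a choice made after seeing the data, 0 of 10 genes were called by limma-trend. Over all 13299 tested genes that fit called only 2. In it Lgr5 stood at -0.49, Rnf43 at 0.27, Axin2 at 0.18 and Tbx3 at 0.15 in log2 fold change.

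**Figure D2:**
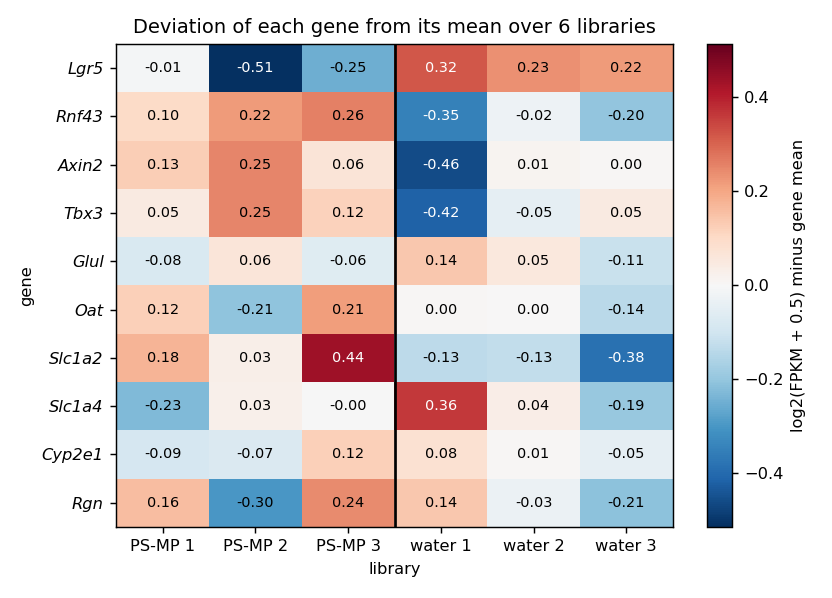
Heat map of log2(FPKM + 0.5) of each gene (rows) minus its mean over the 6 libraries (columns; PS-MP left of the line, water right), with the value printed in each cell. Red is above and blue below the gene's mean; Slc1a2 runs from 0.44 in PS-MP replicate 3 to -0.38 in water replicate 3, and Axin2 reaches -0.46 in water replicate 1.

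Among the nitrogen-handling genes, Slc1a2 stood apart. It encodes GLT-1, a glutamate transporter that in liver is made by the hepatocytes next to the central vein and in brain is the main glutamate transporter of astrocytes (chromosome 2, 102658659 to 102790784, plus strand). It had 27.6, 24.9 and 33.1 FPKM in PS-MP replicates 1, 2 and 3, against 22.2, 22.3 and 18.6 FPKM in water replicates 1, 2 and 3. Every PS-MP library lay above every water library, with the highest value in PS-MP replicate 3. The means were 28.6 ± 4.19 FPKM in PS-MP and 21.0 ± 2.097 FPKM in water (SD, n = 3 each), a 1.35-fold difference in FPKM + 0.5 (log2 fold change 0.43, standard error 0.12, 95% interval 0.16 to 0.70, limma adjusted p = 0.19). Its exons share 189 bases with the antisense gene Gm13872, which had 19 reads over the 6 libraries.

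Because Slc1a2 is abundant in brain, its values were set beside those of other brain transcripts. The 10 astrocyte markers summed to 6.63, 3.45 and 12.9 FPKM in PS-MP replicates 1, 2 and 3, against 4.62, 4.95 and 4.404 FPKM in water, and 8 of 10 were highest in PS-MP replicate 3. Of the markers, Mlc1 had 0, 0 and 17 reads in PS-MP and none in water. Aqp4, Aldoc and Gja1 had the highest means and were detected in every library; Aqp4 had 3.64, 1.48 and 2.83 FPKM in PS-MP, against 1.86, 3.05 and 2.099 FPKM in water. Slc1a3, the other main glutamate transporter of astrocytes, had 0.10, 0.01 and 1.04 FPKM in PS-MP, against 0.10, 0.03 and 0.08 FPKM in water. Without PS-MP replicate 3 the log2 fold change of Slc1a2 was 0.32 (standard error 0.10, limma adjusted p = 0.297), against 0.43 with it. That fit still holds brain transcripts: neuron markers summed to 3.84 and 2.27 FPKM in PS-MP replicates 1 and 2, against 1.18 to 1.29 FPKM in water. The 4 tested neuron markers had a median log2 fold change of 0.62 there, against 1.41 over all libraries. Neuron markers at 0 reads in all water libraries were Nefl, Stmn2 and Gad1, with 82, 66 and 79 reads in PS-MP replicate 3. The most abundant neuron markers were Snap25, with 0.69, 0.18 and 8.49 FPKM in PS-MP and at most 0.02 FPKM in water, Camk2a and Syt1. The part of brain transcripts in the Slc1a2 values of the PS-MP libraries, replicate 3 included, was not tested.

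**Figure D3:**
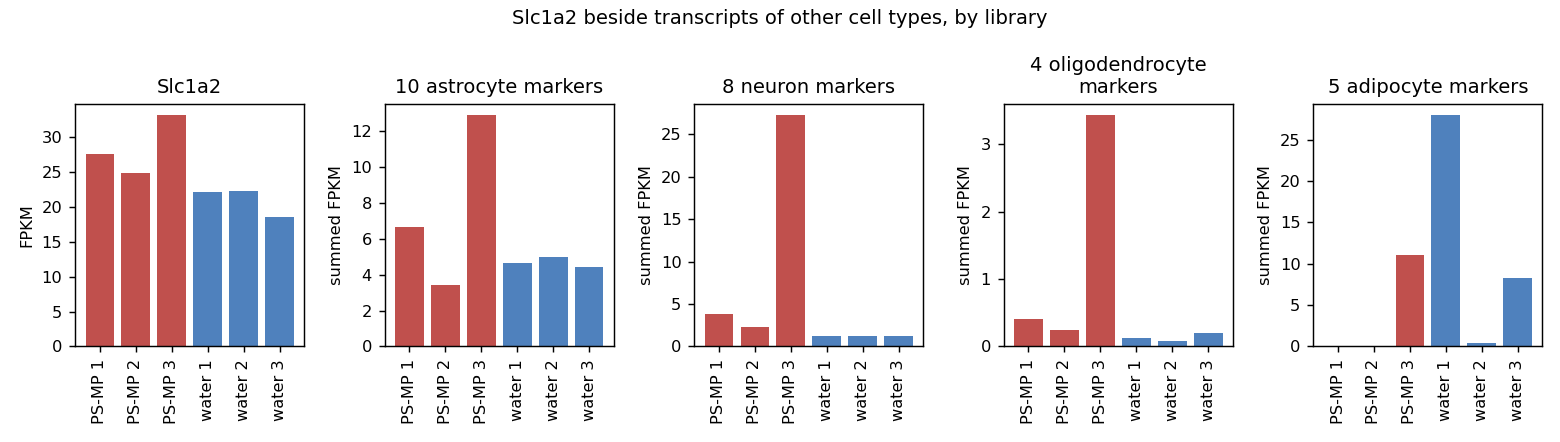
Bars from 0 give Slc1a2 FPKM and the summed FPKM of astrocyte, neuron, oligodendrocyte and adipocyte markers (y axes) in each library, PS-MP in red and water in blue. Slc1a2 is above water in all 3 PS-MP libraries, the neuron and oligodendrocyte sums (27.3 and 3.43 FPKM) peak in PS-MP replicate 3, and the adipocyte sum is highest in water replicate 1 (28.0 FPKM).

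The sequence before a gene's start is where TCF/LEF factors often bind. The 250 bases before each RefSeq start (GRCm38.p6) were searched for the letters CTTTGA on either strand, a form of the core that these factors recognise. Other forms of the core were not searched. On the other strand CTTTGA reads TCAAAG, and these strings cannot overlap each other. RefSeq windows were matched for 7 of the 10 genes, with 8 windows in all; Lgr5, Tbx3 and Rgn had none. The letters occurred in 2 of the 8 windows, those of Slc1a2 and Cyp2e1, and in 13.8% of all 32851 windows of this length. The windows of these genes are shown with the matches in capitals, and that of Axin2 is shown as a WNT target with no match to these letters. The Slc1a2 window is chr2:102706188-102706437 (plus strand) and lies inside the longer GENCODE gene, with matches starting 206 and 77 bases before the RefSeq start. The Cyp2e1 window is chr7:140763569-140763818 (plus strand), with a match 135 bases before the start, and the Axin2 window is chr11:108920099-108920348 (plus strand). A match describes letters, not binding.
Slc1a2: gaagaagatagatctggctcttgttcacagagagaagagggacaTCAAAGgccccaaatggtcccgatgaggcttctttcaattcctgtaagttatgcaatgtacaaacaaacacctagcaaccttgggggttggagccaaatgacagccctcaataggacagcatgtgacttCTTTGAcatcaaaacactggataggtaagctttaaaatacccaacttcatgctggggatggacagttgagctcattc
Cyp2e1: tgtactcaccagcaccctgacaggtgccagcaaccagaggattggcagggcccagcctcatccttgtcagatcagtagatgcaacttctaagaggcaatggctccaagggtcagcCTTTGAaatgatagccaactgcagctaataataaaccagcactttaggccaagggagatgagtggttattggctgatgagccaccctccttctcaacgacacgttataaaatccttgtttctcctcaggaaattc
Axin2: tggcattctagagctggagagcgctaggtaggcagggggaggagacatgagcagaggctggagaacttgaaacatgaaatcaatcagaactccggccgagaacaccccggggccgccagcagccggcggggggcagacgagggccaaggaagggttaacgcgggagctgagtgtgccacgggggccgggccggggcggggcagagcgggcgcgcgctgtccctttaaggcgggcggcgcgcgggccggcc

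Glul encodes glutamine synthetase, which joins ammonia to glutamate in the innermost pericentral hepatocytes (chromosome 1, 153899944 to 153909723, plus strand). It had 287, 316 and 290 FPKM in PS-MP, against 333, 314 and 280 FPKM in water. The groups overlapped, and the whole range of the PS-MP values lay within that of water. The log2 fold change was -0.05 (standard error 0.09, 95% interval -0.25 to 0.15, limma adjusted p = 0.838), which as a fold runs from 0.84 to 1.11. Without water replicate 1 the log2 fold change was 0.0040. Glul shares 116 exon bases with Teddm2 on the other strand, which had 138 reads over the 6 libraries.

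Oat encodes ornithine aminotransferase, a mitochondrial enzyme that turns ornithine into a precursor of glutamate (chromosome 7, 132557478 to 132576398, minus strand). It had 875, 697 and 932 FPKM in PS-MP, against 807, 806 and 731 FPKM in water. PS-MP replicates 1 and 3 lay above all water libraries and PS-MP replicate 2 below them. The log2 fold change was 0.09 (standard error 0.12, 95% interval -0.19 to 0.37, limma adjusted p = 0.806), and it was 0.0015 without PS-MP replicate 3 and 0.21 without PS-MP replicate 2.

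Slc1a4, a transporter of alanine, serine and cysteine in the same protein family as Slc1a2, was near the lower end of the tested genes (chromosome 11, 20302180 to 20332713, minus strand). It had 0.47, 0.66 and 0.63 FPKM in PS-MP, against 0.96, 0.66 and 0.49 FPKM in water. The groups overlapped, and the level rests on 24 to 41 reads in PS-MP and 28 to 57 reads in water. Counting error alone spans 0.30 to 0.70 FPKM in PS-MP replicate 1 and 0.72 to 1.24 FPKM in water replicate 1. For Slc1a4 the log2 fold change was -0.14 (standard error 0.16, 95% interval -0.50 to 0.23, limma adjusted p = 0.761), and 0.011 without water replicate 1.

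Cyp2e1 encodes the cytochrome P450 that oxidises ethanol, acetone and paracetamol (chromosome 7, 140763739 to 140774987, plus strand). It had 4205, 4238 and 4855 FPKM in PS-MP, against 4709, 4481 and 4318 FPKM in water. PS-MP replicates 1 and 2 lay below all water libraries and PS-MP replicate 3 above them. For Cyp2e1 the log2 fold change was -0.02 (standard error 0.12, 95% interval -0.31 to 0.26, limma adjusted p = 0.951), and -0.092 without PS-MP replicate 3.

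Rgn encodes regucalcin, a gluconolactonase of the pathway to ascorbate (chromosome X, 20549787 to 20562089, plus strand). It had 305, 222 and 323 FPKM in PS-MP, against 301, 267 and 236 FPKM in water. The PS-MP libraries held both the highest and the lowest value. For Rgn the log2 fold change was 0.07 (standard error 0.15, 95% interval -0.28 to 0.42, limma adjusted p = 0.882), and -0.036 without PS-MP replicate 3. PS-MP replicate 2 was the lowest library for both Oat and Rgn, and PS-MP replicate 3 the highest for Oat, Rgn and Cyp2e1.

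**Figure D4:**
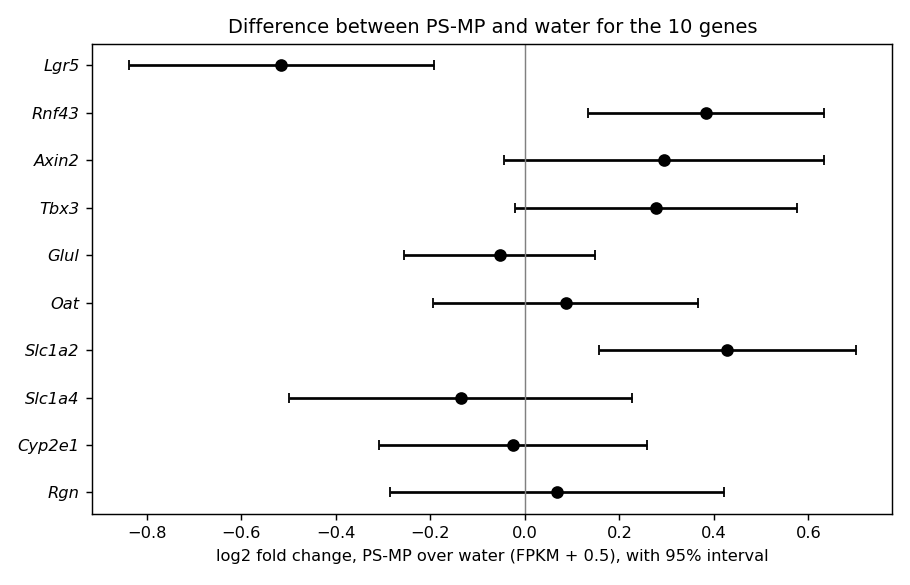
Log2 fold change of each gene, PS-MP over water, on the scale of FPKM + 0.5 (x axis), with its 95% interval from limma-trend (bars); genes run down the page by role. The intervals of Slc1a2 (0.16 to 0.70), Rnf43 (0.13 to 0.63) and Lgr5 (-0.84 to -0.19) leave out 0 before adjustment, and the other 7 include it.

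The rest of the WNT pathway was read in the same fit. Of all tested genes in that fit, 0.489% changed and 13.1% had an unadjusted p under 0.05. Of 13 ligands, R-spondins and secretion factors, 9 were tested and 0 changed by limma-trend (1 with an unadjusted p under 0.05), with a median log2 fold change of 0.06 beside 0.01 over all tested genes. Rspo3, the R-spondin of central vein endothelium, had 2.28, 1.79 and 1.34 FPKM in PS-MP, against 1.45, 1.99 and 1.65 FPKM in water. Wnt2, made by the same endothelium, had 1.73, 1.78 and 2.53 FPKM in PS-MP, against 2.28, 1.33 and 1.496 FPKM in water, and Wnt9b stayed at or under 0.54 FPKM in all libraries. Rspo3 and Wnt9b were named after their values were seen. The smallest p-values of this list were those of Porcn, which attaches the lipid that WNT proteins need for release (0.32 in log2 fold change), Wnt5a (-0.26), Wls (0.18) and Wnt2 (0.20).

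Of 17 receptors listed, 11 were tested and 0 changed by limma-trend. An unadjusted p under 0.05 was found for 4 of them, beside 13.1% of all tested genes. The median log2 fold change was 0.27. Fzd4, a frizzled receptor, had 7.25, 6.76 and 9.19 FPKM in PS-MP, against 4.63, 5.17 and 5.33 FPKM in water (log2 fold change 0.56, standard error 0.12, limma adjusted p = 0.116). Lrp5, a co-receptor, had 9.55, 8.21 and 8.07 FPKM in PS-MP, against 11.7, 11.2 and 10.8 FPKM in water (log2 fold change -0.37, standard error 0.08, limma adjusted p = 0.131). The groups did not overlap in either gene. Fzd8 (0.47) and Ror1 (0.34) were the others with an unadjusted p under 0.05. Lgr4, the R-spondin receptor that Lgr5 resembles, had 12.8, 12.2 and 13.8 FPKM in PS-MP, against 12.7, 12.3 and 13.1 FPKM in water; it was named after its values were seen.

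Of 18 genes for beta-catenin, its destruction complex and its partners, 16 were tested and 0 changed by limma-trend (1 with an unadjusted p under 0.05; median log2 fold change -0.06). Ctnnb1, which encodes beta-catenin and was named after its values were seen, had 25.8, 27.6 and 26.1 FPKM in PS-MP, against 28.0, 26.9 and 28.3 FPKM in water. The repressive factor Tcf7l1 (-0.28) had the smallest p, followed by Bcl9 (0.37), Bcl9l (0.21) and Tcf7l2 (-0.23). Of 16 inhibitors, 5 were tested and 0 changed (1 with an unadjusted p under 0.05; median 0.07). Notum, an enzyme that strips the lipid from WNT proteins and is itself a beta-catenin target, had 7.81, 7.37 and 6.71 FPKM in PS-MP, against 6.43, 6.44 and 5.72 FPKM in water (log2 fold change 0.22, limma adjusted p = 0.35). Dkk3 (0.62), Nkd1 (-0.13) and Znrf3 (0.07) followed, and Dkk3 had 2.51 FPKM in PS-MP replicate 3, against at most 0.96 FPKM in the other 5 libraries. Among 13 other beta-catenin targets, of which 11 were tested, 0 changed (1 with an unadjusted p under 0.05; median 0.07). The target list shares Nkd1, Notum and Znrf3 with the inhibitors. It also shares genes with the list of beta-catenin and its partners and with the pericentral list below. Notum was the gene with an unadjusted p under 0.05 among both the targets and the inhibitors, and Znrf3 gave both medians. The counts of these lists are therefore not independent. After Notum, the smallest p-values were those of Cyp1a2 (-0.16), Ccnd1 (-0.28) and Cd44 (-0.23).

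Of 24 other pericentral hepatocyte genes, 23 were tested and 1 changed by limma-trend, beside 0.489% of all tested genes. The gene was Cyp2a5, at 269, 270 and 295 FPKM in PS-MP, against 91.5, 113 and 85.3 FPKM in water (log2 fold change 1.53, limma adjusted p = 0.00831). Without water replicate 3 Cyp2a5 stood at 1.44 and was not called (limma adjusted p = 0.0915). Over the 23 tested genes of this list the median was -0.09 in log2 fold change. Of them 15 were negative and 8 positive, against 53.7% positive among all tested genes. An unadjusted p under 0.05 was found for 2 of the 23, beside 13.1% of all tested genes. With single libraries left out, that count ran from 1 to 6 and the number positive from 6 to 10. The median of this list then ran from -0.14 to -0.063. Gstm6 (-0.26), Cyp2c54 (-0.17) and Gstm2 (-0.20), a P450 and glutathione transferases, followed by p and did not pass. Cyp2a5, the Cyp2c genes and the Gstm genes have close copies that reads can be split between, so their values are uncertain. Of 19 periportal genes, all tested, 0 changed by limma-trend. Of these, 7 had an unadjusted p under 0.05, beside 13.1% of all tested genes. The median was 0.08, with 14 of 19 positive beside 53.7% of all tested genes. Sds, which breaks down serine (0.66), Hal, which breaks down histidine (0.22), Ass1 of the urea cycle (0.39) and G6pc, which releases glucose (-0.48), had the smallest p. With single libraries left out, the periportal count at an unadjusted p under 0.05 ran from 3 (without water replicate 1) to 8 (without water replicate 2). It was 5 without PS-MP replicate 3. The periportal median then ran from 0.078 to 0.27.

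**Figure D5:**
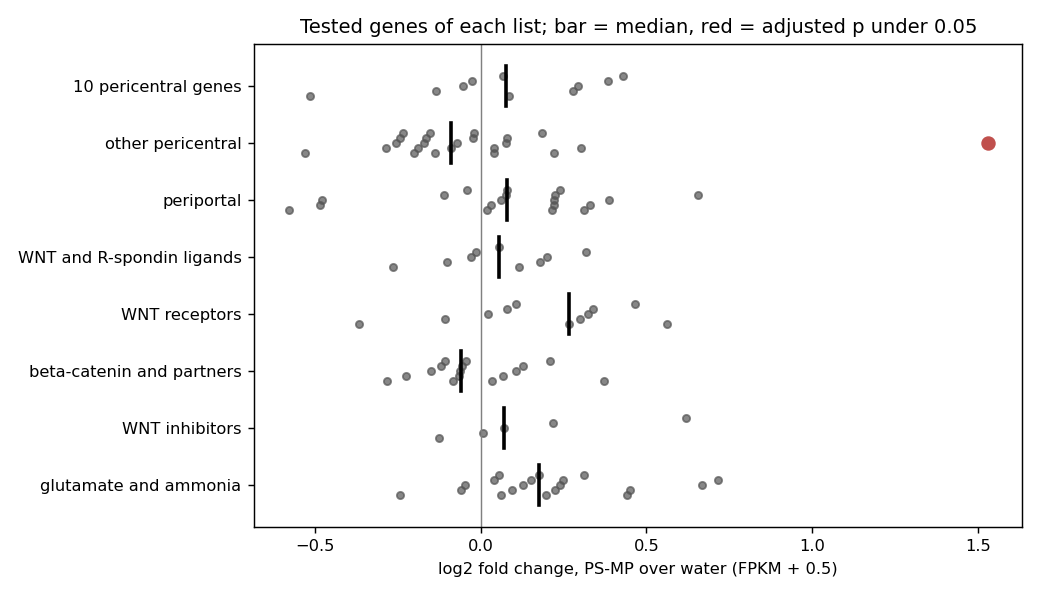
Log2 fold change of the tested genes of each list, PS-MP over water, on the scale of FPKM + 0.5 (x axis); points are genes, black bars list medians, and the red point is the gene with an adjusted p under 0.05. The medians run from -0.09 for the other pericentral genes to 0.27 for the WNT receptors, and the red point at 1.53 is Cyp2a5.

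Genes around glutamate, ammonia and ornithine, the substrates of Glul, Oat and Slc1a2, were also read. Of 23 listed, 19 were tested and 0 changed by limma-trend, beside 0.489% of all tested genes. Of these, 7 had an unadjusted p under 0.05, all 7 positive, beside 13.1% of all tested genes in either direction. The median log2 fold change was 0.18, with 16 of 19 positive beside 53.7% of all tested genes. Gls2 is among the 7 here and also among the 7 periportal genes. Prodh, which oxidises proline, had 22.4, 19.4 and 28.7 FPKM in PS-MP, against 13.0, 16.1 and 14.3 FPKM in water (log2 fold change 0.67, standard error 0.14, limma adjusted p = 0.116). Got1, the cytosolic aspartate aminotransferase, had 149, 236 and 306 FPKM in PS-MP, against 121, 133 and 150 FPKM in water (log2 fold change 0.72, limma adjusted p = 0.261). Gpt (0.45) and the glutamine transporter Slc38a3 (0.31) followed. PS-MP replicate 3 held the highest value in 16 of the 23 listed genes, Prodh, Got1, Gpt and Slc38a3 among them. Without PS-MP replicate 3 the median was 0.086, with 13 of 19 tested genes positive and 4 at an unadjusted p under 0.05, and that count was 2 without water replicate 1 and 4 without water replicate 3. Rhbg, an ammonium transporter of pericentral hepatocytes, had 6 to 11 reads in PS-MP and 7 to 10 reads in water and was not tested.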

How the data were processed

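For every gene, each deposited file gives its library's FPKM as the authors computed it. The tools named in the submitters' processing notes were CASAVA, FastQC, MultiQC, Trimmomatic 0.38, HISAT2 2.1.0, featureCounts 1.6.0 and DESeq2 1.22.1. Those notes name the build GRCh38, while the gene identifiers are all those of mouse GENCODE M21 (GRCm38). Strandedness is not stated, so overlapping antisense genes cannot be separated.

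Dividing FPKM times merged exon length by the smallest step of a library gave numbers that were whole within 0.01 reads for 100% of values above 0 in every library; these recovered reads gave depth, the low-count rule and intervals, which cover counting error only. Genes needed 0.66 CPM in 3 libraries and 15 reads in all (13299 of 55536). Limma-trend (limma 3.58.1, R 4.3.3) was fitted to log2(FPKM + 0.5) with group as the only term, with Benjamini-Hochberg adjustment over all tested genes at 0.05. The deposited unit is FPKM, so the count model planned for raw reads was not used. No libraries of a group were identical.

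The 10 genes and all lists were chosen with earlier results of these data known. Named genes are the 10, each list's genes past the test or up to 4 with the smallest p, the markers at 0 reads in water and the 3 most abundant markers of a list; others are said to be named after their values were seen. Not every marker that meets this rule is named.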

Additional observations from a re-analysis of the deposited data

How the results depend on the processing

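The count of changed genes among the 10 was 0 in all 16 alternatives tried. The count over all genes, 65 by limma-trend, was 0 to 36 when single libraries were left out (0 without water replicate 3, with 1641 at an unadjusted p under 0.05; 2 without PS-MP replicate 2; 3 without water replicate 1), 2 without PS-MP replicate 3 and water replicate 1, 0 with no low-count rule (2064 at an unadjusted p under 0.05) and 131 with limma-voom on recovered reads. With the replicate number as a block it was 23, and 0 of the 10 genes were called; the numbers did not pair the libraries (correlation of deviations -0.04, 0.02 and -0.02 for numbers 1, 2 and 3 over 9977 genes). Over all alternatives the smallest limma adjusted p was 0.0718 for Lgr5, 0.114 for Slc1a2 and 0.116 for Rnf43. Slc1a2, Rnf43, Axin2, Tbx3 and Lgr5 kept their direction in all 16; for the first 3 and Lgr5 this was fixed by groups that do not overlap where libraries, pseudocount or the low-count rule varied. With single libraries left out, the log2 fold change ran from 0.0015 to 0.21 for Oat, -0.12 to 0.0040 for Glul, -0.092 to 0.012 for Cyp2e1, -0.036 to 0.23 for Rgn and -0.27 to 0.011 for Slc1a4; Glul was 0.022 with both libraries named above left out. Cyp2a5 was also not called with PS-MP replicate 3 and water replicate 1 left out (limma adjusted p = 0.0577) or with no low-count rule (0.0604). With single libraries left out, a choice made after seeing the data for the lists, the median log2 fold change ran from -0.016 to 0.22 for the 10 genes, -0.040 to 0.058 for the other beta-catenin targets and 0.16 to 0.31 for the WNT receptors. The cause was not tested. Depth limits Slc1a4 most, at 24 to 57 reads per library.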

Other observations

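The counts of the short lists below are read beside all tested genes, of which 0.489% changed by limma-trend and 13.1% had an unadjusted p under 0.05. Of 8 liver endothelial markers, all were tested and 0 changed by limma-trend (0 with an unadjusted p under 0.05), with a median log2 fold change of 0.02. The list does not single out the endothelium of the central vein, which releases WNT proteins. Clec4g of sinusoidal endothelium had 12.8, 10.9 and 10.7 FPKM in PS-MP, against 14.4, 11.2 and 11.5 FPKM in water, and Oit3 and Stab2 were the next most abundant, at 8.57 to 10.4 and 7.11 to 8.60 FPKM in PS-MP and 7.47 to 10.03 and 7.88 to 8.49 FPKM in water. Of 6 cholangiocyte markers, 3 were tested and 0 changed (0 with an unadjusted p under 0.05). Spp1 was the most abundant of them, at 10.5, 8.64 and 12.2 FPKM in PS-MP, against 9.15, 7.98 and 11.7 FPKM in water. The oligodendrocyte markers at 0 reads in all water libraries were Mobp and Mog, with 114 and 5 reads in PS-MP replicate 3, where Mbp had 236 reads.

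Of the 5 genes of glucuronate and ascorbate synthesis read beside Rgn, 4 were tested and 0 changed by limma-trend, beside 0.489% of all tested genes. An unadjusted p under 0.05 was found for 1 of them, beside 13.1%. Ugp2, which makes UDP-glucose, had 102, 93.3 and 97.8 FPKM in PS-MP, against 83.6, 72.0 and 74.0 FPKM in water (log2 fold change 0.35, limma adjusted p = 0.119). Gulo, the last enzyme of ascorbate synthesis, had 96.8, 90.3 and 113 FPKM in PS-MP, against 100.1, 93.8 and 89.8 FPKM in water.

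The tested genes whose pattern over the 6 libraries lay closest to that of Slc1a2, by the root mean square difference of centred log2(FPKM + 0.5) among 9977 genes averaging at least 1 FPKM, were Car2 (0.044), Miip (0.062) and Prr3 (0.063). For Glul they were Tbc1d22a (0.018), Ube3b (0.021) and Coasy (0.022). With 6 libraries and this many genes, such closeness is a description of these libraries.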
